A study of Mus musculus with 4 samples.

Results

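EBF1-H240A-only peaks are the genomic intervals that were called for the EBF1-H240A protein and share no base with any interval called for wild-type EBF1 (EBF1-wt). On chromosomes 1 to 19 and X, 509 of 2757 EBF1-H240A peaks met that rule (18.5%, 95% Wilson interval 17.1 to 19.95). The number depends on the q-value limit and on list length: it was 290 with −log10 q values of 10 or more in both lists, 184 with that limit on the EBF1-H240A list alone, and 898 (32.6%) against an EBF1-wt list of equal length. Conversely, 49.1% of EBF1-wt peaks (2169 of 4419) lacked an EBF1-H240A peak. The calls in both lists chose the set, so its size is a description, and no test was made on it.

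EBF1 (early B-cell factor 1) is a transcription factor that binds DNA as a dimer and is required for commitment to the B lineage, where it turns on genes of the pre-B-cell receptor and works in a network with PAX5 and E2A. EBF1-H240A carries a substitution of histidine by alanine. Chromatin immunoprecipitation followed by sequencing (ChIP-seq) pulls down DNA fragments crosslinked to a protein, and a peak is a place where such fragments pile up above a local background.

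The cells were C57BL/6 pro-B cells transformed with Abelson murine leukemia virus (A-MuLV), with the genotype Ebf1fl/fl;RERTCre, a floxed Ebf1 allele together with a tamoxifen-activated Cre recombinase. In 1 culture EBF1-wt and in the other EBF1-H240A was expressed from a retroviral vector carrying GFP as well, and both cultures were given 2 μM 4-hydroxytamoxifen, started 24 h after transduction. Cells were sorted for GFP; the labels differ on the day of the sort. There was 1 ChIP library and 1 input library (sheared chromatin without immunoprecipitation) per protein, and peak tables of both ChIP libraries were analysed. The proteins came from a vector in a transformed line, the labels do not say whether either culture was a single clone, and endogenous EBF1 left after deletion is not measured by peak tables. Cell identity cannot be checked from peak intervals.

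With 1 library per protein there is no replicate error, and every interval given here covers counting error only. PCR reads without molecular identifiers are not independent molecules. By the peak tables, the average base was covered by 2.97 EBF1-wt fragments and by 1.32 EBF1-H240A fragments, a ratio of 2.26. A site occupied alike would hold fragments in that ratio only if both pull-downs were equally efficient, which was not measured. The ratio also takes the genome size set in both peak calls to be the same, and read totals were not used here. It was not corrected for fragment length: the shortest peaks were 190 bp (EBF1-wt) and 228 bp (EBF1-H240A). The EBF1-H240A library was thus the shallower, and the sites described below are calls made there and not in the deeper library.

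EBF1-H240A-only sites were mostly low peaks with a tail of tall ones. The lowest site had 10 fragments at its summit, the median 17 and the highest 77, whereas EBF1-H240A peaks shared with EBF1-wt ran from 11 through a median of 29 to 320. The lower and upper quartiles of the EBF1-H240A-only sites lay at 14 and 21 fragments, against 20 and 46 for shared peaks. Both sets therefore overlapped over nearly the whole range of the lower one. Fold enrichment, the summit pileup plus 1 over the local background plus 1, had a median of 6.37 (range 3.32 to 26.9) at EBF1-H240A-only sites and 9.88 (3.45 to 127) at shared sites.

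The share of EBF1-H240A peaks without an EBF1-wt call was lower in each higher class of fragment count. It was 59.6% (53.0 to 65.9) among the 218 peaks with 10 to 14 fragments, where 130 were EBF1-H240A-only. It was 33.9% (30.3 to 37.8) at 15 to 19 fragments and 19.96% (16.7 to 23.7) at 20 to 24. At 25 to 29 fragments, 40 of 320 peaks were EBF1-H240A-only (12.5%, 9.32 to 16.6), and at 30 to 39 fragments 24 of 379 (6.33%, 4.29 to 9.25). The Wilson intervals of these 5 classes did not overlap each other. Above that, EBF1-wt calls were missing at few sites: 12 of 376 peaks with 40 to 59 fragments and 2 of 373 peaks with 60 or more.

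**Figure D1:**
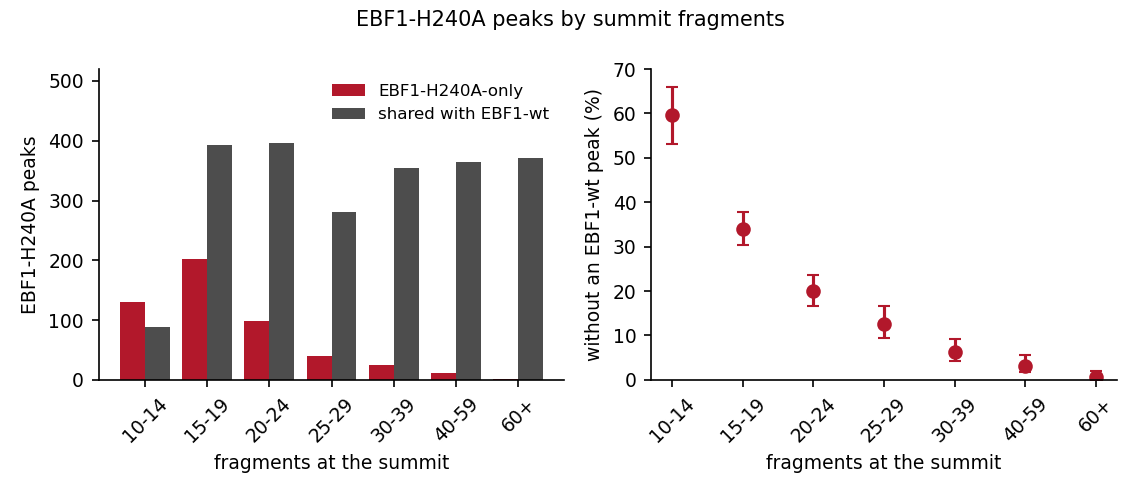
Left, number of EBF1-H240A peaks (y axis) by fragments at the summit (x axis) for EBF1-H240A-only sites (red) and peaks shared with EBF1-wt (grey). Right, percent of the peaks of each class that have no EBF1-wt peak, with 95% Wilson intervals: from 59.6% at 10 to 14 fragments to 0.536% at 60 or more.

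By fold, 315 of the 509 sites (61.9%) were in the lower 3 deciles of the EBF1-H240A list, which held 512 of the 2248 shared peaks (22.8%). Statistical strength followed the same order. The −log10 q-value of the peak caller was at least 10 at 184 sites (36.1%, 32.1 to 40.4) and at 1756 shared peaks (78.1%, 76.4 to 79.8). It was under 5 at 90 sites (17.7%) and at 66 shared peaks (2.94%). At the other end, it was at least 20 at 40 sites (7.86%), the most extreme being 88.9, and at 1111 shared peaks (49.4%).

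The intervals themselves were short. Width had a median of 270 bp (range 228 to 689) at EBF1-H240A-only sites and 349.5 bp (228 to 1172) at shared sites, and 90 of the 509 sites (17.7%) had exactly the shortest width in the list, 228 bp, against 72 of 2248 shared peaks (3.203%). Much less of this remained at equal fragment counts. Among peaks with 15 to 19 fragments the median width was 252 bp at EBF1-H240A-only sites and 264 bp at shared sites, and with 20 to 24 fragments it was 281 bp and 297 bp. In the class of 40 to 59 fragments it was 374 bp and 401 bp. The EBF1-H240A-only median was the lower in all 7 classes of fragment count. The highest class, 60 or more fragments, has no upper limit and held 2 EBF1-H240A-only sites against 371 shared peaks.

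Summits lay somewhat farther from the middle of the interval, at a median of 27.5 bp against 20 bp at shared sites. A summit in the outermost 20% of its interval at either end was found at 21 of 509 EBF1-H240A-only sites (4.13%, 2.71 to 6.22) and at 21 of 2248 shared sites (0.934%, 0.612 to 1.42). At equal fragment counts the order varied. The EBF1-H240A-only and shared medians were 37 bp and 39.75 bp at 10 to 14 fragments, 28.5 bp and 24.5 bp at 15 to 19, and 18 bp and 21.5 bp at 20 to 24. They were 27.25 bp and 19.5 bp at 25 to 29 fragments and 31.25 bp and 16 bp at 30 to 39, so the EBF1-H240A-only value was the larger in 3 of these 5 classes. In both classes from 40 fragments on, with 12 and 2 EBF1-H240A-only sites, it was the smaller.

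**Figure D2:**
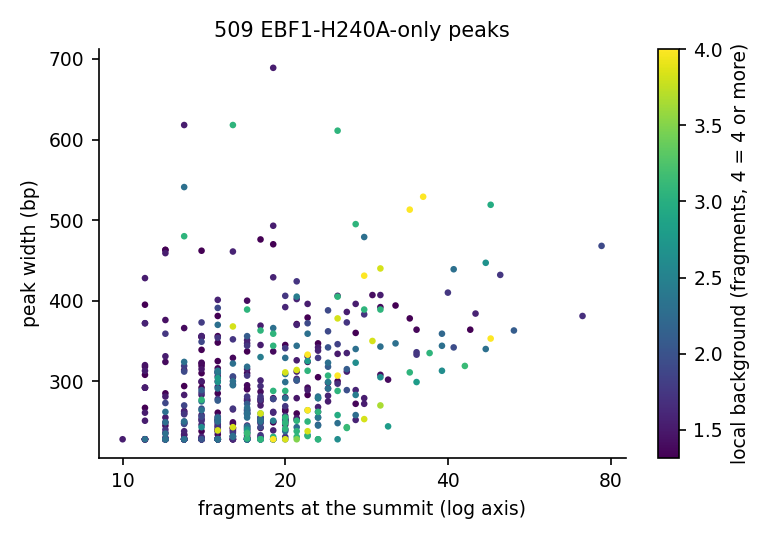
Width of each of the 509 EBF1-H240A-only intervals (y axis, bp) against the fragments at its summit (x axis, log scale), coloured by local background in fragments. Most points lie at 14 to 21 fragments and at widths near 270 bp, and the row of points along the lower edge is the 90 intervals of 228 bp.

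The peak caller is taken to have drawn the local background from the EBF1-H240A input, although its settings are not given. That background had a median of 1.66 fragments (range 1.32 to 6.88) at EBF1-H240A-only sites and 1.92 (1.32 to 6.88) at shared sites. At equal fragment counts this order was not kept. The medians were 1.53 for both sets at 10 to 14 fragments, 1.61 and 1.57 at 15 to 19, and 1.92 and 1.87 at 20 to 24. The EBF1-H240A-only median was also the higher at 25 to 29 fragments (2.18 and 1.92), at 30 to 39 (2.29 and 2.09) and at 40 to 59 (2.19 and 2.09), and the lower at 60 or more (1.80 and 2.23), where it rests on 2 sites. Every background of the EBF1-H240A list fell on a whole number of input reads in 1 of 3 windows, or on the genome average of 1.32, within 0.0001; 1.17% of evenly spread values would do so. At 86 sites (16.9%, 13.9 to 20.4) the genome average set the background, meaning that the input held no local excess, and at shared peaks that share was 12.5% (11.2 to 13.9). Input reads at the summit itself set it at 179 sites (35.2%, 31.1 to 39.4), with a median of 3 reads, against 43.2% (41.2 to 45.3) of shared peaks. A window of 1 kb set it at 152 sites (median 10 reads) and a window of 10 kb at 92 sites (median 94 reads). A 10 kb count that is also a whole number of 1 kb steps was put in the 1 kb class. By fragment count, neither the genome-average nor the summit order held throughout. The genome-average share was higher for EBF1-H240A-only sites at 10 to 14 fragments (25.4% and 17.05%) and at 15 to 19. It was lower in every class from 20 on, with 5% and 13.2% at 25 to 29. The summit share was higher for EBF1-H240A-only sites at 20 to 24 (39.4% and 38.5%) and 25 to 29 (50% and 41.1%). It was lower in the other classes. These differences were not tested.

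The 20 tallest EBF1-H240A-only sites by fold lay on 12 chromosomes, with folds from 12.4 to 26.9 and 30 to 77 fragments at the summit. Coordinates are mm9, 1-based. The tallest, chr7:87786868-87787248, had 71 fragments (95% Poisson interval 55.5 to 89.6) over a background of 1.67, which corresponds to 96 input reads in 10 kb. Its rank by fold was 192 in the whole EBF1-H240A list. The nearest EBF1-wt peak lay 128134 bp away and was itself an EBF1-wt-only call with 57 fragments. The second, chr11:3435019-3435486, had the most fragments of all 509 sites, 77 (60.8 to 96.2), over a background of 1.92. Its nearest EBF1-wt summit was 126215 bp away, while another EBF1-H240A-only site with 14 fragments lay only 2210 bp from it. These were the only 2 sites in the top decile of the EBF1-H240A list, beside 274 shared peaks.

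Next came a group of 4 sites in the ninth decile. The interval chr13:62567941-62568304 had 44 fragments (32.0 to 59.1) over the genome-average background of 1.32. The site chr16:57231215-57231646 had 50 fragments (37.1 to 65.9) and stood alone, since no EBF1-wt summit lay within 1256697 bp and no other EBF1-H240A summit within 1256644 bp. By contrast, chr6:113256390-113256773, with 45 fragments (32.8 to 60.2), had an EBF1-wt peak of 94 fragments with a summit 7877 bp away that was in turn missing from the EBF1-H240A list. The fourth, chr17:45310294-45310656, had 53 fragments (39.7 to 69.3), and its nearest EBF1-wt peak, 29469 bp away, had 33 fragments and was also EBF1-wt-only. So for both of these sites the nearest EBF1-wt peak was EBF1-wt-only, as were 49.1% of all EBF1-wt peaks.

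The sites ranked 7 to 20 had folds from 12.4 to 15.3. On chromosome 1 they were chr1:133096533-133096896 with 35 fragments (24.4 to 48.7) and chr1:156921047-156921382, also with 35. Chromosome 4 held chr4:117947151-117947528 with 34 fragments and chr4:40720917-40721256 with 47 (34.5 to 62.5). The latter had an EBF1-wt peak of 96 fragments, shared with EBF1-H240A, whose summit was 7968 bp away. On chromosome 2 there were 3 sites: chr2:104419408-104419749 with 41 fragments, chr2:43349293-43349594 with 31, and chr2:31711475-31711913 with 41 (29.4 to 55.6), of which the second was 4751038 bp from any EBF1-wt summit. Chromosome 16 added chr16:20701993-20702402 with 40 fragments and chr16:93139780-93140171 with 30. Chromosome 13 added chr13:29050084-29050477 with 32 fragments over the genome-average background. The others were chr8:47798561-47798893 with 35 fragments, chr17:29035857-29036303 with 47, chr14:66924219-66924526 with 30 and chr9:14708434-14708792 with 39. The last had an EBF1-wt-only peak of 91 fragments with a summit 6755 bp away. Of the 20 sites, 3 had an EBF1-wt summit within 10 kb, 6 had one between 10 and 100 kb, and 11 had none within 100 kb. Among all 509 sites the shares in these 3 classes were 24.8%, 45.4% and 29.9%. Ranked by fragments instead of fold, chr17:35342104-35342622 entered the first 5, with 48 fragments (35.4 to 63.6) over a higher background of 2.96 and thus a fold of 12.4. It was tied there with chr8:73203043-73203395, which had 48 fragments over a background of 4.59 and a fold of 8.77 and was added after its values were seen.

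**Figure D3:**
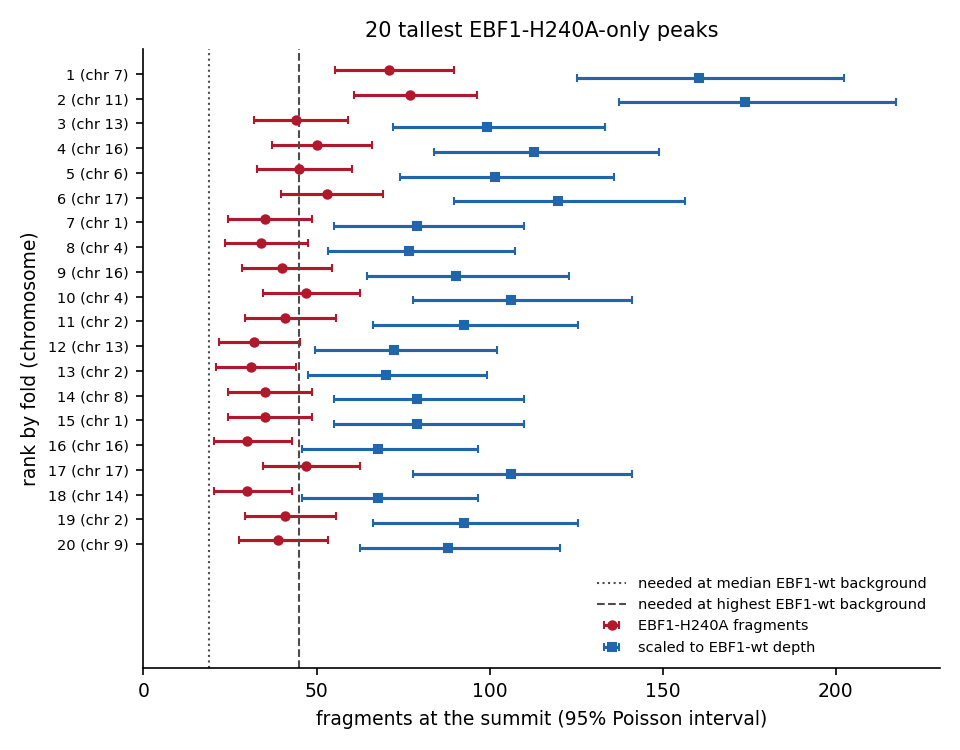
Fragments at the summit (x axis, 95% Poisson intervals) of the 20 EBF1-H240A-only sites with the highest fold (y axis, rank and chromosome): as counted for EBF1-H240A (red circles) and scaled by 2.26 to the EBF1-wt depth (blue squares). Vertical lines mark the 19 and 45 fragments a call needs at the median and the highest EBF1-wt background. The lower bound of all 20 scaled values is above 45, as it is for any peak with 30 or more EBF1-H240A fragments.

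The scaled counts show how these sites stand against the limit for a call in the EBF1-wt library. The EBF1-wt backgrounds below are on the scale of the deposited pileup, where each fragment counts 0.6345, so that the lowest, 1.88, is the average of 2.97 fragments given above; the counts needed are in unscaled fragments. At the weakest p-value in the EBF1-wt list, a call needs 16 fragments over the lowest EBF1-wt background (1.88), 19 over the median background (2.47), 29 over the 95th percentile (5.00) and 45 over the highest (11). If occupied as in the EBF1-H240A library, and if the ratio of 2.26 holds, the 509 sites would have from 22.6 to 174 EBF1-wt fragments. The median would be 38.4. All 509 scaled values were above 19 fragments, but this was fixed in advance. The lowest scaled value of all 2757 EBF1-H240A peaks was also 22.6. For 318 sites (62.5%) the lower bound of the 95% Poisson interval was above 19 too. For 146 sites (28.7%) the lower bound reached 29 fragments, and for 38 sites (7.47%) it reached 45. Those 38 were the sites with 30 or more EBF1-H240A fragments, a height that 1090 of 2248 shared peaks (48.5%) had. The 20 tallest by fold were all among those 38, with lower bounds of 45.7 or more. At a fixed ratio the bounds depend on the EBF1-H240A count alone. The EBF1-wt background at each site is not in the tables, the width a call requires was not modelled, and the sites were selected on their own EBF1-H240A count, which was not corrected for.

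Shared peaks of the same height show what EBF1-wt counts accompanied such EBF1-H240A counts elsewhere. At the 371 shared peaks with 60 or more EBF1-H240A fragments, the EBF1-wt peak had from 39 to 322 fragments with a median of 162. At the 364 shared peaks with 40 to 59 fragments it had from 25 to 222, with a median of 104.5. At the 735 shared peaks with at least 40 EBF1-H240A fragments the median was 1.94 EBF1-wt fragments per EBF1-H240A fragment, with a 5th percentile of 0.984. Over all 2248 shared peaks it was 2.27, with a 5th percentile of 1.20; the lowest value in either set was 0.443. The shared peaks were selected for having an EBF1-wt call, so their lower end is bounded by the call limit.

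The lowest sites lay at the limit of the peak caller. The 5 with the lowest fold had 13 to 19 fragments over backgrounds of 3.06 to 4.59, all set by 4 to 6 input reads at the summit. The lowest of all, chr17:35118923-35119161, had 15 fragments (8.40 to 24.7), a fold of 3.32 and a −log10 q-value of 2.26, and was also the lowest fold of the 2757 EBF1-H240A peaks. It was followed by chr2:72818722-72819201 with 13 fragments, chr11:95112210-95112577 and chr5:112720999-112721241 with 16 each, and chr18:36099067-36099294 with 19.

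At the border of the rule, some sites nearly touched an EBF1-wt interval. The closest, chr19:6399789-6400103 (14 fragments), was separated by 27 bp from an EBF1-wt-only peak of 67 fragments. The next, chr1:78485254-78485505 (15 fragments), was 69 bp from an EBF1-wt-only peak of 56 fragments. The summits were 447 bp apart at the first and 377 bp at the second; at shared sites the median was 21 bp and the 95th percentile 83 bp. The others were chr4:149070322-149070553, chr11:5921241-5921491 and chr8:108147558-108147804, with 22, 14 and 13 fragments, and all lay beside an EBF1-wt peak that EBF1-H240A shared. The chromosome 8 site was 181 bp from a tall EBF1-wt peak of 254 fragments. In all, 7 sites had an EBF1-wt interval within 200 bp. On the other side of the border, the shared peaks with the fewest common bases had 45 to 87 bp in common. They were chr5:135910951-135911179 (13 EBF1-H240A and 100 EBF1-wt fragments), chr8:107869179-107869528 (13 and 24), chr1:161921996-161922237 (11 and 41), chr5:142892366-142892593 (12 and 38) and chr3:65778449-65778676 (18 and 36).

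Most EBF1-H240A-only sites lay far from EBF1-wt peaks, and their spacing was close to that of other EBF1-H240A peaks. The nearest EBF1-wt summit was at a median of 36850 bp, with quartiles of 10197 and 127463 bp. At shared EBF1-H240A peaks, the nearest EBF1-wt summit other than that of the overlapping peak was at a median of 32718.5 bp. Within 10 kb, 126 sites (24.8%, 21.2 to 28.7) had an EBF1-wt summit, and 653 shared peaks (29.05%, 27.2 to 31.0) had another one. The 2 intervals overlap, as they do at 1, 2, 5, 20, 50 and 100 kb, although the share was lower for EBF1-H240A-only sites at every distance from 2 kb on. By fragment count, the share within 10 kb was the higher for EBF1-H240A-only sites in 2 of 7 classes, with 25.7% (20.2 to 32.2) and 23.9% (19.97 to 28.4) at 15 to 19 fragments and 29.3% (21.2 to 38.9) and 28.0% (23.8 to 32.6) at 20 to 24. It was the lower in the other 5: 21.5% and 25% at 10 to 14 fragments, 25% and 27.9% at 25 to 29, 20.8% and 31.0% at 30 to 39, 16.7% and 29.1% at 40 to 59, and 0 of 2 sites and 35.6% at 60 or more. The Wilson intervals of the 2 sets overlapped in every class. Overlapping intervals do not show that 2 shares are equal, and no test was made. EBF1-wt-only peaks had an EBF1-H240A summit within 10 kb in 15.4% of cases (13.9 to 16.9), measured against a list that is shorter.

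**Figure D4:**
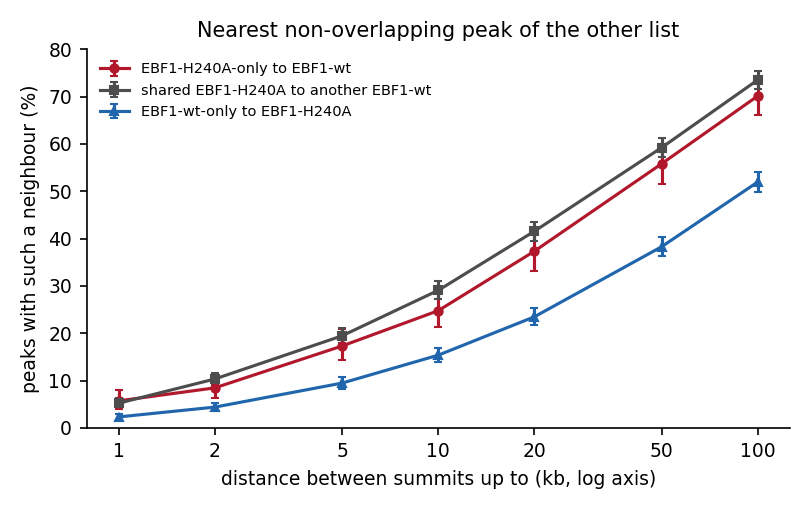
Percent of peaks (y axis, 95% Wilson intervals) with a summit of a non-overlapping peak of the other list within the distance on the x axis (kb, log scale), for EBF1-H240A-only sites, shared EBF1-H240A peaks and EBF1-wt-only peaks. At 10 kb the values are 24.8%, 29.05% and 15.4%.

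Sites near to and far from EBF1-wt peaks had similar median heights, while the highest count in each class rose with distance. Of the 20 tallest sites by fold, 11 lay beyond 100 kb, against 29.9% of all sites. This difference was not tested. The 29 sites with an EBF1-wt summit within 1 kb had a median of 15 fragments (10 to 37), the 97 sites at 1 to 10 kb 18 (11 to 47), the 231 sites at 10 to 100 kb 17 (11 to 53), and the 152 sites beyond 100 kb 17 (11 to 77). The local background was 1.81, 1.92, 1.64 and 1.53 in the same order. The nearest EBF1-wt peak was shared with EBF1-H240A for 20 of the 29 closest sites (69.0%) and 61 of the 97 at 1 to 10 kb (62.9%). It was shared for 136 of the 231 sites at 10 to 100 kb (58.9%) and for 70 of the 152 farthest sites (46.1%). No such share is given here for shared EBF1-H240A peaks. Of all EBF1-wt peaks, 50.9% were shared.

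A few sites were remote from EBF1-wt peaks, with 16 more than 1 Mb from an EBF1-wt summit. The 95th percentile of that distance was 698162.6 bp at EBF1-H240A-only sites. At shared peaks it was 630464.7 bp, measured to the nearest EBF1-wt summit other than that of the overlapping peak. The farthest EBF1-H240A-only site was chrX:117459361-117459599, with 17 fragments (9.90 to 27.2) over the genome-average background. It was 11072909 bp from an EBF1-wt summit and 12937821 bp from another EBF1-H240A summit. It was 1 of 2 EBF1-H240A-only sites on chromosome X. Others were chr16:76549851-76550192 with 23 fragments (4803596 bp), chr2:43349293-43349594 with 31 (4751038 bp), chr6:22356072-22356299 with 17 (4620792 bp) and chr13:70776552-70776875 with 22 (2778240 bp). None of the 5 had an input background above 1.53, which was the median of all 152 sites beyond 100 kb.

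Within their own list, 153 sites (30.1%, 26.2 to 34.2) had another EBF1-H240A summit within 20 kb, against 32.5% (30.6 to 34.4) of shared peaks. That neighbour was a shared peak for 125 of the 153 and another EBF1-H240A-only site for 28. The shared part, 81.7%, was near the 81.5% of shared peaks in the whole EBF1-H240A list. Chaining EBF1-H240A-only summits within 20 kb left 463 sites single and gave 18 pairs, 2 groups of 3 and 1 group of 4.

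The group of 4, chr11:118987568-119012047, surrounded the tallest peak of the EBF1-H240A list. Its sites had 14, 14, 15 and 20 fragments and folds of 5.14 to 6.32, and the shared peak between them had 320 fragments. EBF1-wt had 2 peaks in the same stretch, the shared one with 322 fragments and an EBF1-wt-only one with 38. The group chr17:80364057-80390869 was free of EBF1-wt peaks over its whole 26813 bp: its 3 sites had 19, 21 and 21 fragments and folds of 4.93, 8.07 and 6.68. An EBF1-wt peak of 44 fragments, shared with EBF1-H240A, lay 9937 bp outside the group, before its first site. The group chr5:113567509-113582658 held 3 sites with 18, 15 and 16 fragments and 2 shared peaks with 21 and 17, where the EBF1-wt peaks had 58 and 35 fragments. Sites and shared peaks were thus of like height in the chromosome 5 group, and the shared peak was far the taller in the chromosome 11 group.

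Every chromosome in the list had EBF1-H240A-only sites. The share was lowest on chromosome X, at 10% (2.79 to 30.1) with only 2 of 20 EBF1-H240A peaks. Among autosomes it ran from 13.8% (9.88 to 18.9) on chromosome 5, with 31 of 225, to 25.1% (19.6 to 31.6) on chromosome 17, with 50 of 199. The interval of chromosome 17 lay above the 18.5% of all main chromosomes, and that of every other chromosome contained it. Chromosome 17 was picked as the highest of 20 values, so its interval is no test. The local background was higher there, with a median of 2.29 at EBF1-H240A-only and 2.79 at shared sites, against 1.57 and 1.74 on the other chromosomes, and its part in the share was not tested. Without chromosome 17 the share was 17.9% (16.5 to 19.5).

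**Figure D5:**
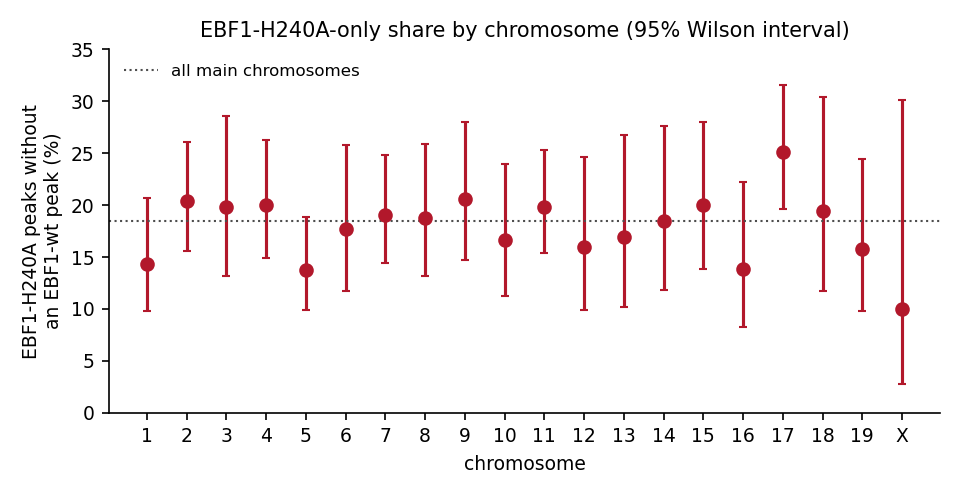
Percent of EBF1-H240A peaks that have no EBF1-wt peak (y axis, 95% Wilson intervals) on each chromosome (x axis), with the value of 18.5% over all main chromosomes as a dotted line. Chromosome 17 is the highest at 25.1%, and its interval lies above the line.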

How the data were processed

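ChIP-seq peak tables of 1 EBF1-wt and 1 EBF1-H240A library were analysed, grouped by sample title; the inputs entered only through the peak caller's values. Per the labels' protocols, sonication gave fragments averaging 300 bp, and 10 PCR cycles were run. Per the submitters' processing notes, MACS2 2.1.0.20150731, HOMER 4.6, Bowtie2, Picard and SAMtools were used with mm9; neither their settings nor the handling of duplicates is given in the sources used here.

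Columns, per the file headers, are a pileup, which is a coverage signal at the summit, a fold enrichment, and p-values and q-values on the −log10 scale, computed by the authors for each library separately. The deposited fold is a ratio, pileup plus 1 over local background plus 1. Lowest −log10 q-values were 2.06 (EBF1-wt) and 2.01 (EBF1-H240A). EBF1-wt pileups were multiples of 0.635 and were divided by that step to give fragments; EBF1-H240A pileups were whole. Background was (pileup + 1) / fold − 1, and a Poisson tail over it matched the deposited −log10 p-values to a median of 5.2e-06 (EBF1-H240A) and 2.7e-05 (EBF1-wt). The window classes take the shortest peak, 228 bp, as the fragment length. 

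Overlap needed 1 bp and main chromosomes; the 2 EBF1-H240A peaks elsewhere overlapped EBF1-wt peaks. Intervals are Wilson for shares and exact Poisson for fragments, at 95%. Python 3.11.15, pandas 2.3.3, numpy 2.4.6 and scipy 1.17.1 were used, and scripts were tested on simulated lists. The set of sites, the rules and the lists were chosen with earlier results of these data known. Named sites were the 20 highest by fold, the 5 with most fragments, the 5 lowest, the 5 closest to and farthest from EBF1-wt peaks, the 5 shared peaks with least overlap, and groups of 3 or more. Alternatives changed the overlap rule, the q limit, the list length, chromosome 17 and the distances. The gene and promoter tables at hand are for GRCm38, not mm9, so sequences, motifs, genes and gene lists were not used here.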

Additional observations from a re-analysis of the deposited data

How the results depend on the processing

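The main limits are 1 library per protein, the lower depth of the EBF1-H240A library and peak calls made separately. Among 54 alternative values, 26 left the counting interval of the reported share or median, or differed from the reported number by over 1.5 times, and 28 did not. The number of EBF1-H240A-only sites (509) became 290 when both lists were limited to −log10 q values of 10 or more, 184 when the EBF1-H240A list alone was, and 898 when the EBF1-wt list was cut to the length of the EBF1-H240A list. Their share (18.5%) became 14.9%, 9.48% and 32.6% in the same order, 21.0% when 50% reciprocal overlap was required and 21.2% when summits had to lie within 100 bp. Median fold (6.37) became 8.63, 8.57 and 6.68 under both q limits and equal lengths, and median width (270 bp) 312, 302.5 and 284 bp. Median fragments (17) became 23 under either q limit. The share with an EBF1-wt summit within 10 kb (24.8%) became 34.0% and 34.4% under those 2 overlap rules, 19.7% and 20.1% under the q limits and 19.4% with equal lengths; it was 8.45%, 55.8% and 70.1% for 2, 50 and 100 kb. The share with another EBF1-H240A summit within 20 kb (30.1%) was 14.5% for 5 kb and 45.2% for 50 kb. The q limits remove low peaks by construction, and equal lengths remove EBF1-wt peaks. Also by construction, the stricter overlap rules add sites that overlap an EBF1-wt interval, and wider distances take in more summits. No other cause of a change was tested. Allowing gaps of up to 200 bp (502 sites) or leaving out chromosome 17 (459 sites) moved no value. The planned motif and location alternatives were not run, because mm9 sequence and annotation were not used here. No paired analysis was possible because only 1 library exists for each protein here.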

Other observations

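Of the 14 EBF1-H240A-only sites with at least 40 fragments, 4 (28.6%, 11.7 to 54.6) had another, smaller EBF1-H240A-only site within 5 kb. The others had none. Among the 495 sites under 40 fragments, 20 (4.04%, 2.63 to 6.16) had another EBF1-H240A-only site within 5 kb, the companions of the tall sites included. The pattern was chosen after its values were seen and was not compared with tall shared peaks. On chromosome 17 the site chr17:35342104-35342622, with 48 fragments, had its companion chr17:35341607-35341846, with 17, at 638 bp between summits. On the same chromosome chr17:48440192-48440510, with 43 fragments, and chr17:48439398-48439632, with 17, had summits 730 bp apart, and no EBF1-wt summit lay within 194534 bp. The sites chr16:20701993-20702402 and chr16:20700154-20700465 had 40 and 13 fragments, 1911 bp apart. The tall site chr11:3435019-3435486, with 77 fragments, had chr11:3437306-3437563, with 14, as its companion at 2210 bp. Pairs of more equal height occurred as well: chr3:88258005-88258349 and chr3:88258696-88259035 had 20 and 27 fragments 716 bp apart, and chr4:44978151-44978453 and chr4:44980267-44980636 had 21 each at 2090 bp. Of the 18 pairs, 10 had summits within 5 kb.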
